A study of Mus musculus with 11 samples.

Results

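The genes described here are the ligands and receptors of vascular endothelial growth factor (VEGF) on mouse arrays of A375 xenografts: Vegfa, Vegfb, Vegfc, Pgf, Flt1, Kdr, Flt4, Nrp1 and Nrp2. They were chosen by name, and a probe was kept where its detection p-value, which sets its signal against negative control beads, was under 0.05 on at least 1 of the 11 arrays. Of 22 probes for these 9 genes, 12 passed, out of 16217 detected probes with a single gene symbol on the whole array. The probe with the largest mean stood for each gene, giving 9 of the 10933 genes tested. The tumors grew from A375, a BRAF-mutant line of human melanoma, in female athymic mice of the CD1 stock that were 6 weeks old at implantation. Tumors of 150 to 200 mm3 were treated for 12 days, as the sample labels give it. PLX4720, which blocks mutant BRAF, was gavaged daily at 60 mg/kg in 1% methylcellulose (3 arrays). Bevacizumab was raised against human VEGF-A, which it binds far better than the mouse protein, and mice received 10 mg/kg of it in 0.9% saline by injection 3 times a week (3 arrays). COMBO mice received both drugs (2 arrays), and vehicle mice received 1% methylcellulose (3 arrays), so that no array here stands for saline alone. All groups share the A375 graft and the athymic host, which lacks a thymus and most T cells but keeps its myeloid cells. The RNA came from whole tumors, so it held human RNA of the cancer cells beside mouse RNA of vessels, fibroblasts and leukocytes. How far human transcripts bound the mouse probes was not measured.

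VEGF-A is the main growth signal of blood vessels: it binds the receptor tyrosine kinases VEGFR1 (Flt1) and VEGFR2 (Kdr) on endothelial cells, and Kdr carries most of the signal for proliferation and permeability. Vegfb and Pgf (placental growth factor) bind Flt1, whose soluble form also traps VEGF-A, and Vegfc acts on Flt4 (VEGFR3), best known from lymphatic vessels. The neuropilins Nrp1 and Nrp2 are co-receptors for VEGFs and for class III semaphorins. Transcription of Vegfa is induced by hypoxia through HIF factors, and several tumor and stromal cell types make it.

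PLX4720 arrays detected 13049 to 15130 probes, against 10115 to 12315 on the arrays of the other groups (11178 to 11797 with bevacizumab, 11536 to 12315 with COMBO and 10115 to 11322 with vehicle). After quantile normalization the log2 fold changes with PLX4720 had a median of 0.14 over all genes, and after median scaling it was 0.76, where 4791 genes were called higher and 209 lower in place of 602 and 821. Skeletal muscle genes stood apart on single arrays: the mean log2 signal of 16 of them was 12.76 on PLX4720 replicate 1, 10.01 on COMBO replicate 1 and 9.25 on bevacizumab replicate 2, and at most 6.47 on vehicle arrays. Markers of endothelial cells were present on every array, with 18 to 23 of 24 measured genes detected. The files give no chip positions, so batches could not be tested. With 2 or 3 arrays in a group, their number limits the precision. Groups this small can lie apart on a gene without a difference between them. How many of all genes lay apart in this way was not counted.

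**Figure D1:**
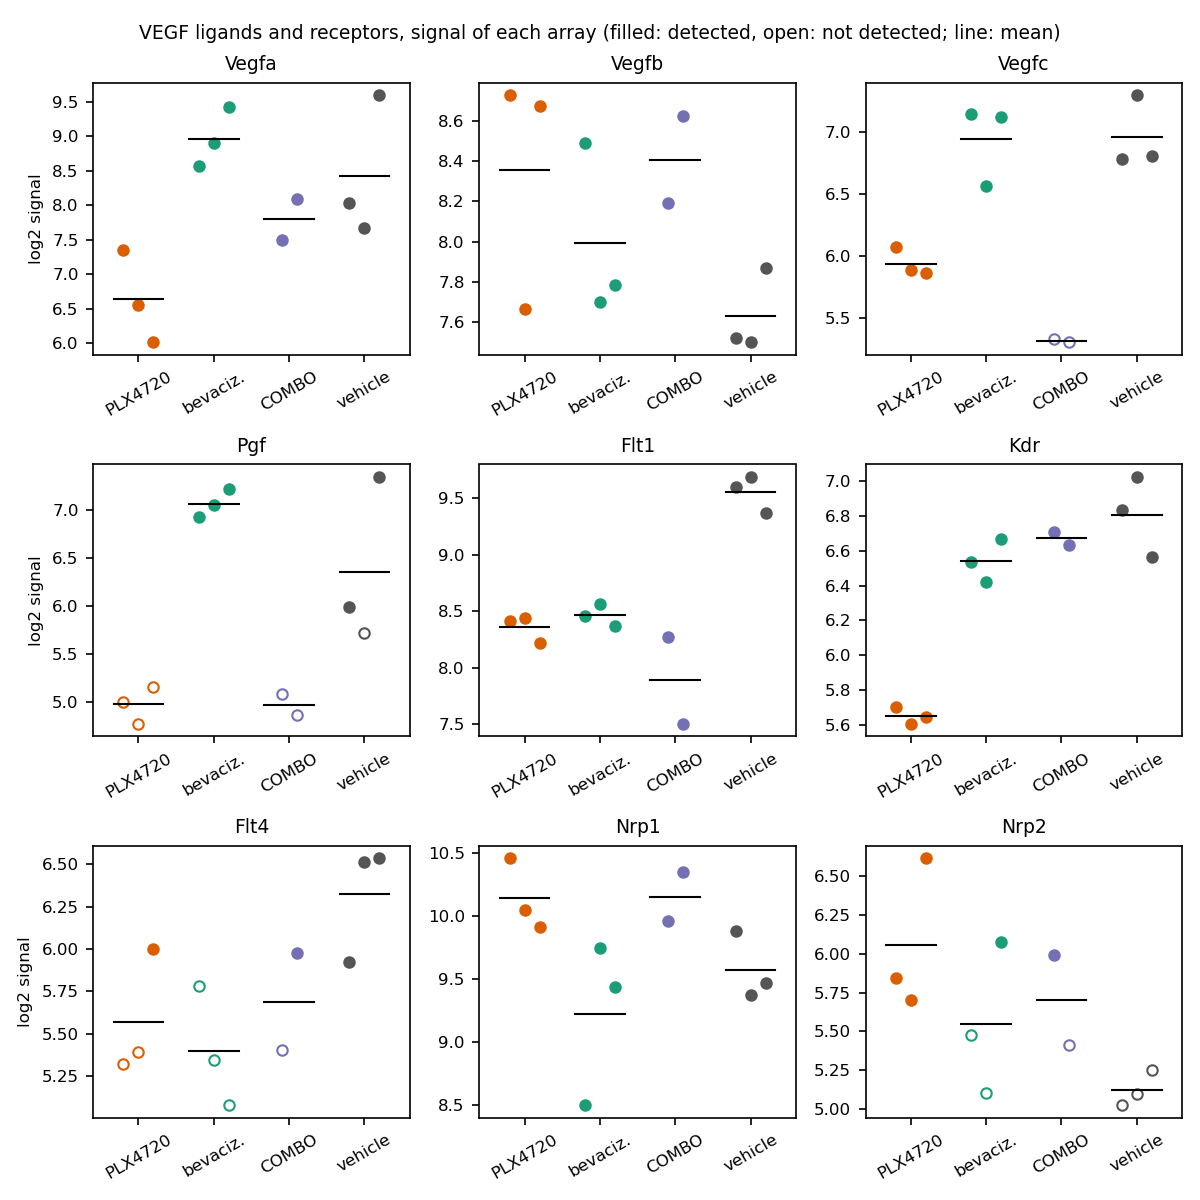
Log2 signal of the 9 VEGF ligands and receptors on each of the 11 arrays, with groups along the x axis, filled points for arrays on which the probe was detected, open points for arrays on which it was not, and a line at the group mean. The PLX4720 arrays lie below all vehicle arrays for Vegfa, Vegfc, Pgf, Flt1 and Kdr, and Kdr on the COMBO arrays (6.71 and 6.63) lies among the vehicle arrays. The share of all genes whose arrays lie apart in this way was not counted.

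The first comparison asked what BRAF inhibition did to the VEGF axis of the host. With PLX4720, 5 of the 9 genes fell and 0 rose at an adjusted p under 0.05 in limma, where 7.51% of all genes tested fell and 5.51% rose. Those that fell were the ligands Vegfa (log2 fold change -1.79), Vegfc (-1.02) and Pgf (at least 1.84-fold lower) and the receptors Flt1 (-1.20) and Kdr (-1.16). The other 4 were Vegfb (0.72), Flt4 (-0.75), Nrp1 (0.56) and Nrp2 (at least 1.09-fold higher). Where all arrays of a group did not detect a probe, the size is given as such a bound. The mean of the brighter group was set against the dim group, with each array raised to the lowest signal among its detected probes. Each "at least" holds for the measured group means only. It leaves out their sampling error and is no lower confidence limit. The weaker end of the 95% confidence interval in limma was a log2 fold change of -0.60 for Pgf with PLX4720. For Flt4 with bevacizumab it was -0.28. At the fold and p thresholds of the study's methods (a log2 fold change of 1 or more in size and an unadjusted p under 0.01), the 5 genes passed too, against 6.42% of all genes. The tumors are bulk tissue, so fewer cells that express a gene and less RNA of it per cell cannot be told apart. The calls depended on the scaling: with median scaling only Pgf was called lower (adjusted p = 0.0114), and Vegfb, Nrp1 and Nrp2 were called higher. Of all genes, 1.91% were called lower and 43.8% higher there. The sign of all 9 fold changes was the same with median scaling. Relative to the median of all genes with that scaling, the differences were -1.53 for Vegfa, -1.03 for Vegfc, -0.90 for Flt1 and -1.31 for Kdr. Flt4, called with neither scaling, had -1.095 there, and Vegfb (1.08) and Nrp1 (0.80) lay above that median. Pgf lay below it and Nrp2 above it, each with a group that did not detect it.

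The second comparison asked what blockade of VEGF-A alone did. With bevacizumab, 0 of the 9 genes passed the adjusted test, as against 0.00915% of all genes in either direction. The unadjusted p was under 0.05 for 766 genes, of which 2 were members: Flt1 (log2 fold change -1.09, unadjusted p = 0.000676, adjusted p = 0.397) and Flt4 (at least 1.42-fold lower, unadjusted p = 0.00886, adjusted p = 0.601). Flt1 alone passed the thresholds of the methods, which 0.476% of all genes passed in the lower direction.

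The third comparison asked what both drugs did together. With COMBO, Vegfc (at least 2.3-fold lower) and Flt1 (log2 fold change -1.67) fell and 0 members rose, where 0.247% of all genes fell and 0.119% rose. Pgf was added at the thresholds of the methods (at least 1.51-fold lower, adjusted p = 0.157), which 2.04% of all genes passed in the lower direction. Kdr differed from vehicle by -0.14, with a 95% confidence interval of -0.64 to 0.37. An F test across all 4 groups, passed by 10.6% of all genes with an adjusted p under 0.1, called Vegfa (adjusted p = 0.0547), Vegfc (0.0123), Pgf (0.0174), Flt1 (0.0178) and Kdr (0.0271), 5 of the 9 members. The 3 comparisons share the vehicle arrays and are therefore not independent of each other.

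**Figure D2:**
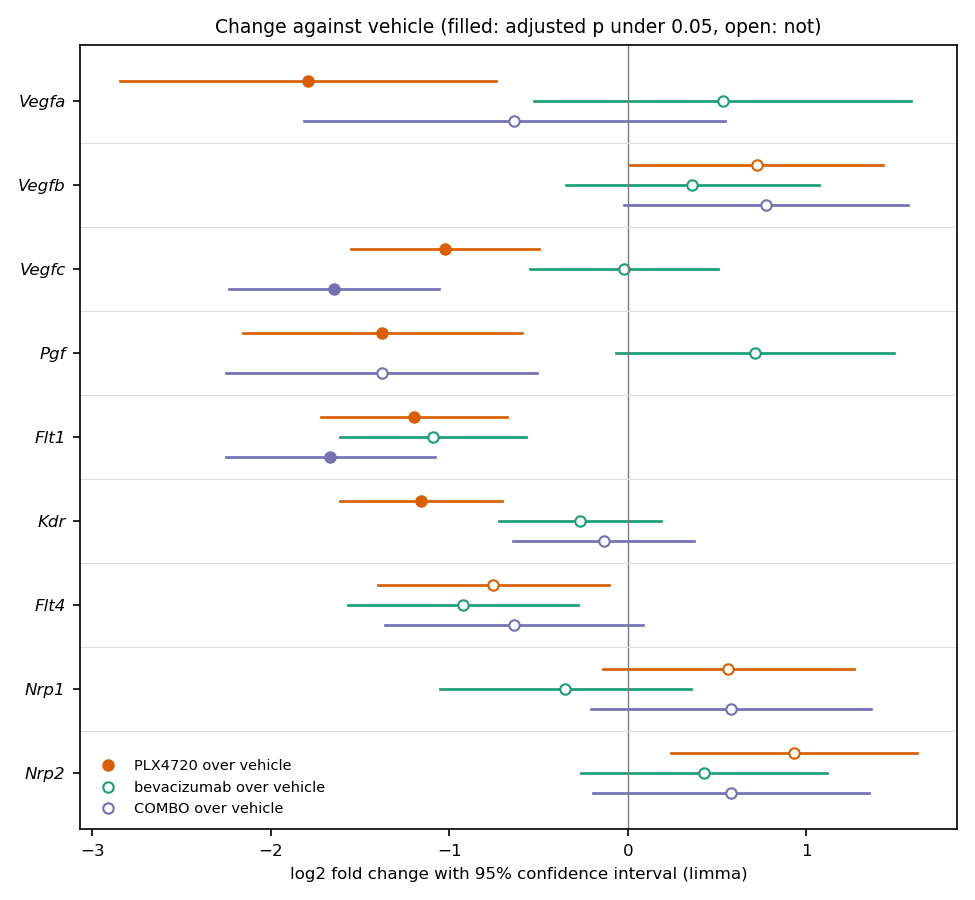
Log2 fold change of each member over vehicle on the x axis, with its 95% confidence interval from limma, for PLX4720, bevacizumab and COMBO from top to bottom in each row, filled where the adjusted p is under 0.05; the fitted sizes of Pgf with PLX4720, Vegfc and Pgf with COMBO, Flt4 with bevacizumab and Nrp2 with PLX4720, bevacizumab and COMBO rest on groups at or near background. For Flt1 all 3 intervals lie below 0, whereas for Kdr only the PLX4720 interval does. Kdr on the PLX4720 arrays lies near the detection threshold.

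Among the ligands, Vegfa was lowest on the PLX4720 arrays. Its log2 signal was 7.35, 6.56 and 6.01 on PLX4720 arrays, 8.56, 8.90 and 9.42 on bevacizumab arrays, 7.49 and 8.10 on COMBO arrays, and 8.03, 7.67 and 9.59 on vehicle arrays. All PLX4720 arrays lay below all vehicle arrays, while the bevacizumab and COMBO arrays both overlapped the vehicle range, in which replicate 3 was high. The log2 fold change with PLX4720 was -1.79 with a standard error of 0.48 (adjusted p = 0.0337). It was 0.53 with bevacizumab (95% confidence interval -0.52 to 1.58) and -0.64 with COMBO (-1.81 to 0.54). In order of their means, bevacizumab (8.96), vehicle (8.43), COMBO (7.79) and PLX4720 (6.64) had no pair of neighbours that differed at the adjusted threshold. Without vehicle replicate 3 the PLX4720 value was -1.21 (adjusted p = 0.0993), without PLX4720 replicate 2 it was -1.75 (0.0661) and without PLX4720 replicate 3 it was -1.48 (0.0804). In the signal as deposited, before background correction and scaling, Vegfa ranged from 170.6 to 419.4 on PLX4720 arrays and from 287.5 to 573.6 on vehicle arrays, which overlap. With median scaling its fold change was -0.77 (adjusted p = 0.284).

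A separate probe of Vegfa was detected on 7 of the 11 arrays. It gave 5.46, 5.16 and 5.21 on PLX4720 arrays, 7.35, 6.75 and 7.73 on bevacizumab arrays, 5.62 and 5.52 on COMBO arrays, and 6.63, 6.35 and 7.82 on vehicle arrays. On this probe 1 PLX4720 array and 0 COMBO arrays were detected, and both groups lay below all vehicle arrays. Its log2 fold change was -1.66 with PLX4720 (adjusted p = 0.0176 over 16217 probes), and with COMBO it was at least 2.26-fold lower (adjusted p = 0.19). Over probes, 6 of the 12 member probes fell with PLX4720, as did 6.76% of all detected probes. Another Vegfa probe was detected on no array.

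**Figure D3:**
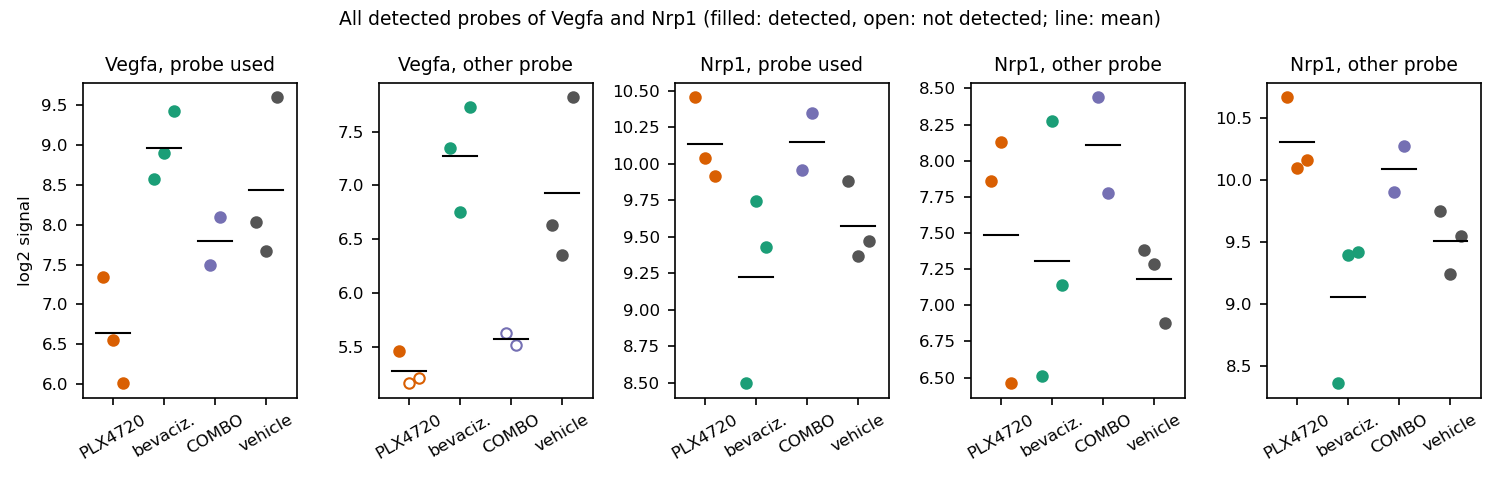
Log2 signal of the 2 detected Vegfa probes and the 3 detected Nrp1 probes on each array, by group, with filled points where detected, open points where not, and a line at the group mean. Both Vegfa probes are lowest with PLX4720 among the groups or level with COMBO, and the Nrp1 probes that correspond to the reference transcript lie above 9.9 on PLX4720 arrays.

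After quantile normalization Vegfc, the ligand of Flt4, was lower in both groups given PLX4720. Its log2 signal was 6.07, 5.89 and 5.86 on PLX4720 arrays, 7.15, 6.56 and 7.12 on bevacizumab arrays, 5.33 and 5.30 on COMBO arrays, and 6.78, 7.29 and 6.80 on vehicle arrays. The COMBO arrays did not detect it, the PLX4720 arrays lay between them and all other arrays, and bevacizumab and vehicle overlapped. Before correction and scaling, Vegfc ranged from 162.5 to 201.3 with PLX4720 and from 170.5 to 251.4 with vehicle, which overlap. The deposited medians were 201.1 and 184.6. Bevacizumab had 159.8 to 184.4 there, and COMBO, at 126 to 130.3, lay below all other arrays. The log2 fold change was -1.02 with PLX4720 (standard error 0.24, adjusted p = 0.0212) and -0.02 with bevacizumab (95% confidence interval -0.55 to 0.51). With COMBO it was at least 2.3-fold lower (adjusted p = 0.0289). COMBO was at least 2.27-fold lower than bevacizumab (adjusted p = 0.0851) and at least 1.13-fold lower than PLX4720 (adjusted p = 0.328). With PLX4720 the call was lost without vehicle replicate 2 (log2 fold change -0.86, adjusted p = 0.092) and with median scaling (-0.27, adjusted p = 0.436). The COMBO call was lost without COMBO replicate 1 (adjusted p = 0.22) or 2 (0.137), vehicle replicate 2 (0.137) or 3 (0.106) or bevacizumab replicate 3 (0.0517).

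Vegfa lies on chromosome 17 (46016993 to 46032377) and Vegfc on chromosome 8 (54077532 to 54186454) of GRCm38.p6. The 250 bases upstream of their most upstream RefSeq starts are shown because both ligands fell with PLX4720 and these windows lie outside the annotated genes, at chr17:46032378-46032627 on the minus strand and chr8:54077282-54077531 on the plus strand. Capitals mark the GC box GGGCGG on either strand.
Vegfa promoter: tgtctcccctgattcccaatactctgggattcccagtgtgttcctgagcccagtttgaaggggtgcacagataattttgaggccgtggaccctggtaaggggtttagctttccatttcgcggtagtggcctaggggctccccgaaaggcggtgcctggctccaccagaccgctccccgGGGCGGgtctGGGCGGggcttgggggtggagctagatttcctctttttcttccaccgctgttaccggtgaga
Vegfc promoter: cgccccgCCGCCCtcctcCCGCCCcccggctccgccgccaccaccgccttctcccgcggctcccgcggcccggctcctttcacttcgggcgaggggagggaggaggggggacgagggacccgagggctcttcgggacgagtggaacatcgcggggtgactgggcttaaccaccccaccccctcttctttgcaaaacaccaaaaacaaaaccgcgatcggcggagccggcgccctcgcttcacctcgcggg
Each window held 2 GC boxes, 72 and 62 bases before the start in Vegfa and 243 and 232 in Vegfc. Neither held the core of the HIF binding site (ACGTG or GCGTG, either strand), but the window of a second Vegfa start, inside the gene, held 2 such cores, 218 and 211 bases before that start. At the most upstream start of each member, 6 of 9 windows held that core (Vegfb, Pgf, Flt1, Kdr, Nrp1 and Nrp2) and 9 of 9 held a GC box. Over 32851 promoter windows of the same length, 38.6% held the HIF core and 32.7% the GC box. These matches describe letters in a window, and binding was not measured.

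Pgf, which binds Flt1, was detected on all 3 bevacizumab arrays, 2 of 3 vehicle arrays, and neither with PLX4720 nor with COMBO. The arrays gave 5.01, 4.78 and 5.16 with PLX4720, 6.93, 7.05 and 7.22 with bevacizumab, 5.09 and 4.87 with COMBO, and 5.99, 5.73 and 7.35 with vehicle. Both groups given PLX4720 lay below all other arrays, and the bevacizumab arrays lay inside the wide vehicle range. With PLX4720, Pgf was at least 1.84-fold lower than with vehicle (adjusted p = 0.0301). The vehicle mean behind this bound includes replicate 2, which did not detect Pgf (5.73), and the high replicate 3 (7.35). How far the bound rests on replicate 3 was not tested. COMBO was at least 1.51-fold lower than vehicle (adjusted p = 0.157) and at least 2.48-fold lower than bevacizumab (adjusted p = 0.113). The call with PLX4720 was lost without vehicle replicate 3 (adjusted p = 0.0618), PLX4720 replicate 1 (0.0695) or PLX4720 replicate 2 (0.0662). The difference between COMBO and bevacizumab passed only without vehicle replicate 3 (adjusted p = 0.0125) among the arrays left out, and its size is known there too only as a bound. With bevacizumab the log2 fold change over vehicle was 0.71 (adjusted p = 0.75).

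Vegfb, a ligand of Flt1, did not pass in any comparison over all 11 arrays after quantile normalization. On the log2 scale it measured 8.73, 7.67 and 8.67 with PLX4720, 8.49, 7.70 and 7.79 with bevacizumab, 8.19 and 8.62 with COMBO, and 7.53, 7.50 and 7.87 with vehicle. PLX4720 replicate 2 and the bevacizumab arrays overlapped vehicle, and both COMBO arrays lay above it. The log2 fold change was 0.72 with PLX4720 (95% confidence interval 0.01 to 1.43, adjusted p = 0.153) and 0.77 with COMBO (-0.02 to 1.57, adjusted p = 0.372). Without PLX4720 replicate 2 the PLX4720 value was 1.07 and passed (adjusted p = 0.0422), and with median scaling it was 1.85 (adjusted p = 0.00154).

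Among the receptors, Flt1 was lower in all 3 treated groups, past the adjusted test with PLX4720 and COMBO. The log2 signal was 8.41, 8.44 and 8.22 with PLX4720, 8.46, 8.56 and 8.37 with bevacizumab, 8.27 and 7.51 with COMBO, and 9.60, 9.69 and 9.37 with vehicle. All treated arrays lay below all vehicle arrays, PLX4720 overlapped bevacizumab, and COMBO replicate 2 was the lowest array. The other Flt1 probe was detected on no array. The log2 fold change was -1.20 with PLX4720 (standard error 0.24, adjusted p = 0.011), -1.09 with bevacizumab (0.24, adjusted p = 0.397) and -1.67 with COMBO (0.27, adjusted p = 0.0289). COMBO differed from PLX4720 by -0.47 (95% confidence interval -1.05 to 0.11) and from bevacizumab by -0.58 (-1.16 to 0.01). The PLX4720 call was lost without vehicle replicate 2 (-1.13, adjusted p = 0.0537) and with median scaling (-0.14, adjusted p = 0.731). In the signal as deposited, Flt1 had 456.6 to 774.8 on PLX4720 arrays, 299.4 to 352.9 on bevacizumab arrays, 259.4 to 344.6 on COMBO arrays and 511.2 to 855.7 on vehicle arrays. Before scaling, PLX4720 thus overlapped vehicle, whereas bevacizumab and COMBO lay below it. Leaving out either COMBO array (-2.05 without replicate 1 and -1.28 without replicate 2), any vehicle array (-1.64, -1.60 and -1.76 without replicates 1, 2 and 3) or bevacizumab replicate 3 (-1.67) lost the COMBO call, at adjusted p of 0.0517 to 0.164.

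Kdr, the main signaling receptor of VEGF-A, was lower with PLX4720 and near vehicle with COMBO. The arrays read 5.70, 5.61 and 5.65 with PLX4720, 6.53, 6.42 and 6.67 with bevacizumab, 6.71 and 6.63 with COMBO, and 6.83, 7.03 and 6.56 with vehicle. The PLX4720 arrays lay below every other array, and the remaining groups overlapped. The other Kdr probe was detected on no array. In the signal as deposited, Kdr had 153.6 to 175.3 on PLX4720 arrays, 146.3 to 162.2 on bevacizumab arrays, 184.1 to 185.1 on COMBO arrays and 161.3 to 230.8 on vehicle arrays, so before correction and scaling the PLX4720 arrays overlapped bevacizumab and vehicle. The log2 fold change with PLX4720 was -1.16 with a standard error of 0.21 (adjusted p = 0.00691), and the call held without any single array (-1.28 to -1.05). With median scaling it was -0.55 (adjusted p = 0.0731), and without background correction -0.53 (adjusted p = 0.0142). With bevacizumab it was -0.27 (95% confidence interval -0.72 to 0.19), and with COMBO -0.14. With median scaling the COMBO value was 0.079, the opposite sign.

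Flt4, the receptor of Vegfc, had a log2 signal of 5.32, 5.39 and 6.00 with PLX4720, 5.78, 5.35 and 5.08 with bevacizumab, 5.40 and 5.97 with COMBO, and 5.92, 6.52 and 6.54 with vehicle. It was detected on all 3 vehicle arrays, on 1 PLX4720 array, on 1 COMBO array and on no bevacizumab array. The bevacizumab arrays lay below all vehicle arrays (at least 1.42-fold lower, adjusted p = 0.601), and the other groups overlapped vehicle. The fold changes of -0.75 with PLX4720 (adjusted p = 0.108) and -0.64 with COMBO (adjusted p = 0.421) did not pass.

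The co-receptors showed no call in the model of group means after quantile normalization, although a fit with the replicate number as a block called Nrp2 higher with PLX4720 (adjusted p = 0.0432). Nrp1 had a log2 signal of 10.45, 10.04 and 9.91 with PLX4720, 8.50, 9.74 and 9.43 with bevacizumab, 9.96 and 10.35 with COMBO, and 9.88, 9.37 and 9.47 with vehicle. PLX4720 and COMBO arrays all lay above the vehicle arrays, and bevacizumab replicate 1 was low. The log2 fold change was 0.56 with PLX4720 (adjusted p = 0.248), -0.35 with bevacizumab (adjusted p = 0.903) and 0.58 with COMBO (adjusted p = 0.511). The other detected Nrp1 probes gave 0.30 and 0.80 with PLX4720, 0.13 and -0.45 with bevacizumab, and 0.93 and 0.58 with COMBO, none past the test over probes.

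Nrp2 was detected on all 3 PLX4720 arrays, 1 bevacizumab array and 1 COMBO array and on no vehicle array. Its log2 signal was 5.85, 5.70 and 6.62 with PLX4720, 5.48, 5.10 and 6.07 with bevacizumab, 6.00 and 5.41 with COMBO, and 5.02, 5.10 and 5.25 with vehicle. PLX4720 and COMBO arrays lay above all vehicle arrays, and bevacizumab overlapped them. With PLX4720 it was at least 1.09-fold higher (adjusted p = 0.072). With median scaling both co-receptors were called higher with PLX4720, as were 43.8% of all genes. Nrp1 had a log2 fold change of 1.56 (adjusted p = 0.00816) and Nrp2 an adjusted p of 0.00373.

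The next comparisons asked what the second drug added to the first. Adding bevacizumab to PLX4720 gave 0 calls among the members, as against 0.00915% of all genes, and 1533 genes, 2 of them members, had an unadjusted p under 0.05. Kdr had the smallest p of the members, with COMBO above PLX4720 by 1.02 on the log2 scale (95% confidence interval 0.51 to 1.53, unadjusted p = 0.000911, adjusted p = 0.108). The Kdr difference was 0.46 without background correction and 0.63 with median scaling. It passed the thresholds of the methods, as did 3.78% of all genes. Vegfa was 1.15 higher (-0.02 to 2.33, adjusted p = 0.366), with 0.29 on its other detected probe and 0.42 with median scaling. On the same arrays the mean of the endothelial markers was 7.13 and 6.78 with COMBO and 7.28 to 7.93 with PLX4720. Any part of endothelial content in the Kdr difference was not tested. Adding PLX4720 to bevacizumab also gave 0 calls, against 0.0457% of all genes and 1040 genes at an unadjusted p under 0.05. Vegfc (at least 2.27-fold lower, adjusted p = 0.0851), Pgf (at least 2.48-fold lower, adjusted p = 0.113) and Nrp1 (log2 difference 0.93, adjusted p = 0.428) had an unadjusted p under 0.05. Vegfc and Pgf passed the thresholds of the methods, as did 2.45% of all genes.

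The effect of bevacizumab with PLX4720 present was also set against its effect without PLX4720. This non-additive term was called for 0 members and for 0.00915% of all genes, with 1535 genes at an unadjusted p under 0.05. For Kdr, bevacizumab changed the signal by 1.02 with PLX4720 and by -0.27 without it, a difference of 1.29 (95% confidence interval 0.61 to 1.97, unadjusted p = 0.00144, adjusted p = 0.138). It passed the thresholds of the methods, as did 4.35% of all genes. The Kdr difference was 0.60 without background correction and 0.88 with median scaling. For Flt1 the difference was 0.62 (-0.16 to 1.40). Leaving out single arrays kept the Kdr difference between 1.18 and 1.41, with 0 of 11 such fits past the adjusted threshold.

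**Figure D4:**
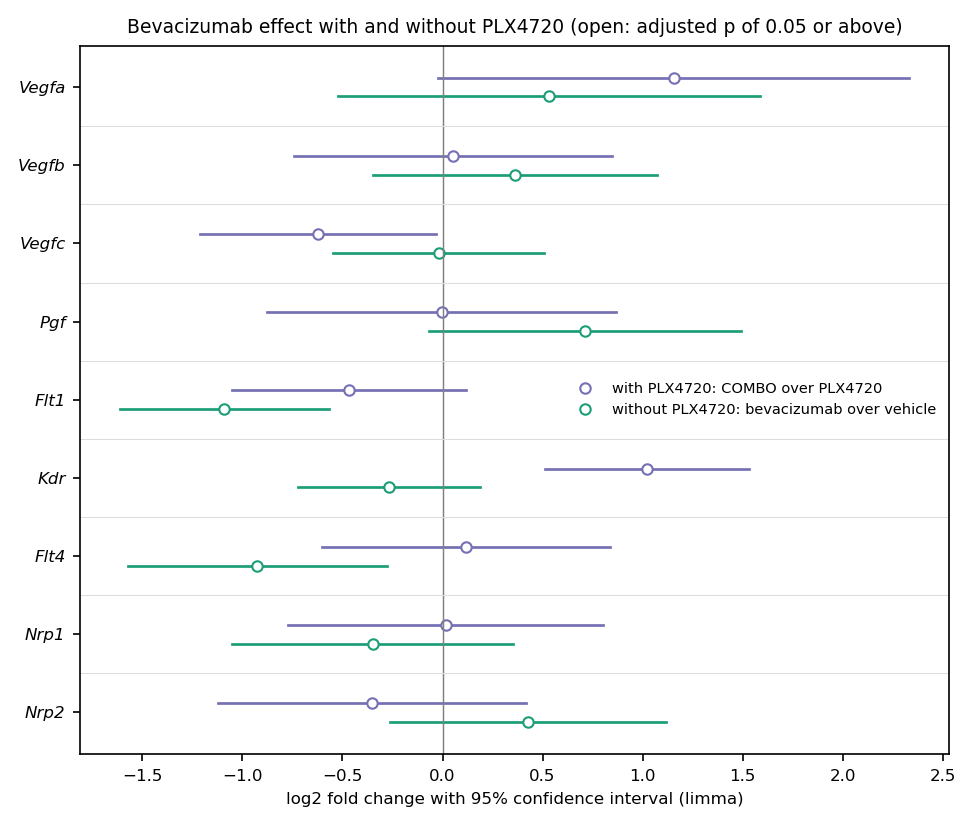
Effect of bevacizumab on each member as a log2 fold change with its 95% confidence interval, in the presence of PLX4720 (COMBO over PLX4720, upper) and in its absence (bevacizumab over vehicle, lower); no value passes the adjusted p of 0.05, and sizes of Vegfc, Pgf and Flt4 rest on groups that did not detect them. The intervals of Kdr do not overlap (1.02 with PLX4720 and -0.27 without it), whereas those of Vegfb and Nrp1 overlap over most of their length. Kdr on the PLX4720 arrays lies near the detection threshold.

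Hypoxia genes were read beside the ligands. Of 15 measured of 19 listed, 7 fell with PLX4720 (7.51% of all genes fell), 0 with bevacizumab and 1 with COMBO (0.247% of all genes), with medians of -1.09, 0.04 and -0.86 beside medians over all genes of 0.14, -0.00195 and 0.00785. Slc2a1, the glucose transporter GLUT1 (-2.52, adjusted p = 0.000424), P4ha1, a collagen prolyl hydroxylase (-2.39, adjusted p = 0.00144), and Egln3, an oxygen sensor (-2.64, adjusted p = 0.00468), had the smallest p with PLX4720. Slc2a1 also fell with COMBO (-1.52, adjusted p = 0.0347). The mean of the hypoxia genes was 7.07 to 7.28 on PLX4720 arrays, 8.17 to 8.40 on bevacizumab arrays, 7.28 to 7.54 on COMBO arrays and 8.02 to 8.53 on vehicle arrays. Over the 11 arrays it had r = 0.90 with Vegfa and 0.92 with Pgf, and 0.91 and 0.68 after group means were removed. These r values describe arrays that share their groups and their scaling. Pgf was detected on only 5 of the 11 arrays. Vehicle replicate 3 was the highest vehicle array for Vegfa (9.59), Pgf (7.35) and the hypoxia mean (8.53). How far r rests on that array was not tested. With median scaling the list's median with PLX4720 was -0.16 beside 0.76 over all genes, with 4 genes called lower and 1 higher. Of all genes, 1.91% were called lower there and 43.8% higher.

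Endothelial markers, which share their cells with Flt1 and Kdr, had medians of -0.74 with PLX4720, -0.47 with bevacizumab and -1.48 with COMBO over 24 measured of 28 genes. With PLX4720 5 of them fell (7.51% of all genes did), with bevacizumab 0 and with COMBO 2 (0.247% of all genes), and 0 rose. With median scaling 3 endothelial markers were called higher with PLX4720 and 0 lower, where 43.8% of all genes were called higher and 1.91% lower. The PLX4720 calls included Emcn, an endothelial sialomucin (-1.37, adjusted p = 0.00567), Gpihbp1, which holds lipoprotein lipase on capillaries (-3.01, adjusted p = 0.00965), and Pecam1, the adhesion molecule CD31 (-1.23, adjusted p = 0.0127). With COMBO, Emcn (-2.04, adjusted p = 0.00721) and Cldn5, a claudin of endothelial tight junctions (-3.51, adjusted p = 0.0347), fell. The median with PLX4720 was of the opposite sign with median scaling (0.27, beside 0.76 over all genes), and with COMBO it was -1.25 there. The mean of the markers had r = 0.87 with Flt1 and 0.27 with Kdr over 11 arrays, and 0.23 and -0.14 after group means were removed. Their part in the values of Flt1 and Kdr was not tested.

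Genes that endothelial cells switch on under VEGF had medians of -0.69 with PLX4720, -0.52 with bevacizumab and -0.44 with COMBO over 10 measured of 12 genes. With median scaling the PLX4720 median was 0.041, and 2 were called higher and 0 lower. Of all genes, 43.8% were called higher there and 1.91% lower. With PLX4720 Angpt2, which destabilizes vessels (-1.61, adjusted p = 0.0113), and Nid2, a basement membrane nidogen (-1.43, adjusted p = 0.0284), fell, and Rcan1, an inhibitor of calcineurin, rose (1.21, adjusted p = 0.044). With COMBO, Nid2 (at least 7.02-fold lower, adjusted p = 0.00721) and Angpt2 (-2.40, adjusted p = 0.0239) fell. All 10 genes were below vehicle with bevacizumab, and 0 of them passed, where the median of all genes was -0.00195. Of the endothelial markers, 22 of 24 were below vehicle as well. The values were -2.12 for Esm1, a secreted proteoglycan, -1.98 for Nid2 and -1.44 for Mmrn2, a matrix protein of endothelium that is in both lists. Dll4 (-0.079) and Rcan1 (-0.082) lay near 0.

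A list of VEGF receptor signaling was counted next, made up mostly of proteins inside the cell, with the ligand Vegfd and the receptor phosphatases Ptprb and Ptprj added. Of 22 measured of 31, 3 rose (5.51% of all genes did) and 0 fell with PLX4720. With bevacizumab 0 changed, and with COMBO 1 rose (0.119% of all genes did). The medians were 0.36, 0.08 and 0.05. The 3 that rose with PLX4720 were Sh2d2a, an adaptor of Kdr that is also used in T cells (at least 2.04-fold higher, adjusted p = 0.018), Src, a tyrosine kinase (at least 1.81-fold higher, adjusted p = 0.0249), and Vav2 (log2 fold change 1.04, adjusted p = 0.0355). Sh2d2a also rose with COMBO (at least 3.21-fold higher, adjusted p = 0.0447). With median scaling 14 were called higher with PLX4720, as were 43.8% of all genes. Of the semaphorin and plexin partners of the neuropilins, 6 of 13 were measured and 0 passed in any comparison, with medians of -0.47, -0.17 and -0.63 for the 3 treatments, and 0.48 with PLX4720 under median scaling. Sema3f, a ligand of Nrp2, had the lowest COMBO value of them (-2.18, adjusted p = 0.117).

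**Figure D5:**
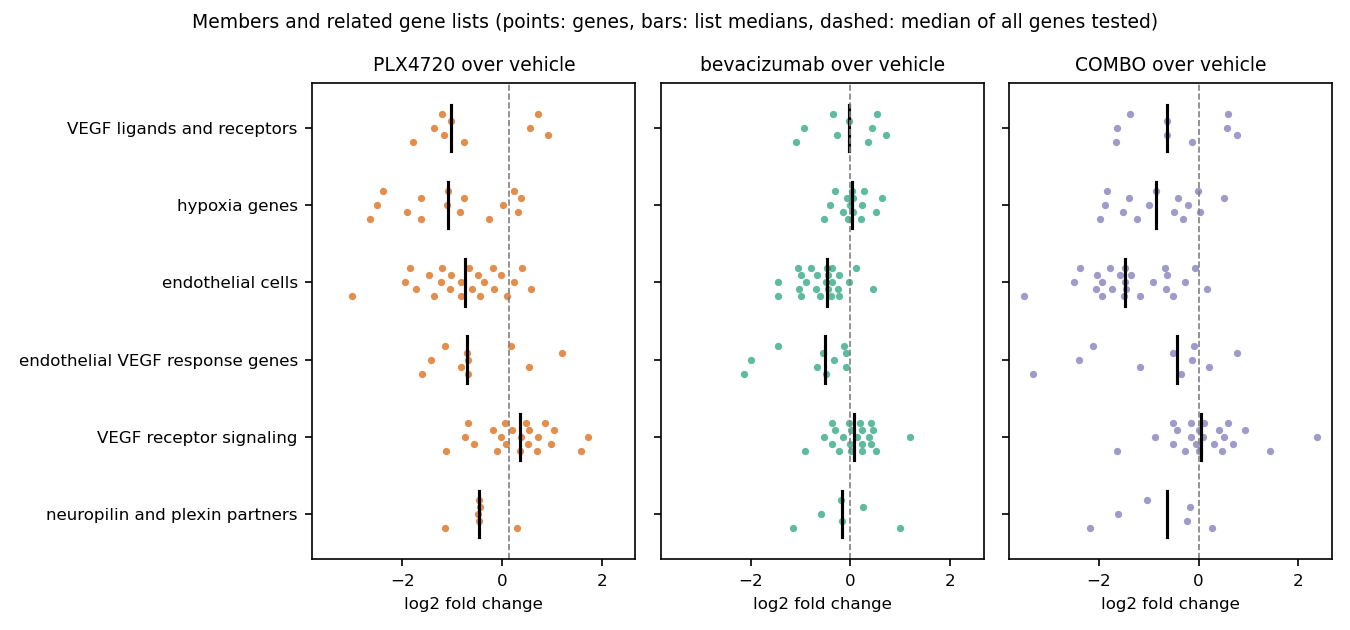
Log2 fold change over vehicle of the 9 members and of the genes in 5 related lists, for PLX4720, bevacizumab and COMBO from left to right, with a bar at each median and a dashed line at the median of all genes tested. The hypoxia genes have medians of -1.09, 0.04 and -0.86, and the endothelial medians of -0.74, -0.47 and -1.48 lie left of the dashed line, although with median scaling the PLX4720 value is 0.27.

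Other host cells were read beside the members. Macrophage markers had medians of 0.69 with PLX4720, 0.05 with bevacizumab and 0.88 with COMBO over 14 genes. Mrc1, Tyrobp and C1qb, 3 of the 14, rose with PLX4720, as did 5.51% of all genes. Pericyte markers had medians of -0.22, 0.04 and -0.95 over 10 genes, and Cspg4, the proteoglycan NG2, fell with PLX4720 (-1.55, adjusted p = 0.00762) and Mcam, an adhesion molecule, with COMBO (-2.53, adjusted p = 0.0289). The pericyte median with PLX4720 was 0.66 with median scaling, where 9 of 14 macrophage, 5 of 9 fibroblast and 3 of 10 pericyte markers were called higher. Of all genes, 43.8% were called higher there, with a median of 0.76. Fibroblast markers had medians of 0.68, 0.53 and -0.80 over 9 genes, and lymphatic markers 0.33, 0.27 and -1.12 over 4 genes, with 0 calls in both lists after quantile normalization. Muscle genes had medians of 3.41, 1.12 and 3.12 over 16 genes, with 0 calls. Without the 3 arrays of highest muscle signal, Flt1 (-1.22, adjusted p = 0.0434) and Kdr (-1.18, adjusted p = 0.0498) still fell with PLX4720. The values there were -2.15 for Vegfa (adjusted p = 0.0705) and -1.09 for Vegfc (0.068), with an adjusted p of 0.126 for Pgf. With COMBO the value was -2.05 for Flt1 (adjusted p = 0.131), and Vegfc had an adjusted p of 0.24. COMBO then had a single array, which was taken to vary like the other groups.

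For 3 members the genes of most similar pattern over the 11 arrays were named, among 7361 genes detected on at least 6 arrays. Flt1 was followed by Cdh13, a cadherin of endothelium (r = 0.93), Emcn (0.93) and Pecam1 (0.92), with r of 0.74, 0.19 and 0.32 after group means were removed. Kdr was followed by Olfr378, an olfactory receptor gene (0.97), the forkhead factor Foxc1 (0.96) and Htr4, a serotonin receptor (0.96), with 0.69, 0.56 and 0.46 within groups. Vegfa was followed by Ppp3r1, a calcineurin subunit (0.91), the ubiquitin ligase Marchf4 (0.90) and Ciart, a circadian repressor (0.90), with 0.74, 0.78 and 0.73 within groups. Among the members themselves, Vegfa and Pgf had r = 0.86 (0.73 within groups), whereas Vegfa and Flt1 had 0.22 and Flt1 and Kdr 0.41. Pgf was detected on only 5 of the 11 arrays. Arrays of 1 group are counted together in these values, which describe likeness and no more.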

How the data were processed

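RNA of 11 xenografts was hybridised to Illumina mouse bead arrays. For each probe the authors deposited a linear signal intensity before normalization, from GenomeStudio 2011.01, and a detection p-value set against negative control beads. A second deposited table holds their intensities after cubic spline normalization, used here as an alternative on the log2 scale. Log2 values were otherwise computed here, by the neqc function (R 4.3.3, limma 3.58.1, offset of 16, negative controls estimated through the detection p-values, quantile normalization). Of 45281 probes, 19392 passed the detection threshold of 0.05 on 1 array or more, and the 16217 with 1 gene symbol gave 10933 genes. Group means were fitted over all 11 arrays with lmFit and eBayes (7 residual and 4.92 prior degrees of freedom), which lends COMBO, with 2 arrays, the spread estimated in the rest. Benjamini-Hochberg adjustment covered all genes tested, and the fit was tested on simulated data. The F test used an adjusted p of 0.1, as did the methods. Groups follow the sample labels, and p-values measure the spread between these arrays. The study's text gives other tumor volumes and treatment lengths than the labels, and the labels were used. The 9 members, the gene lists (hypoxia, VEGF signaling, VEGF response, neuropilin partners and markers of endothelial, lymphatic, pericyte, fibroblast, macrophage and muscle cells), the alternatives and the tests were chosen with earlier results of these data known. All members and their detected probes are named, and of each list up to 3 genes of smallest p in a comparison. Promoter sequences and positions are from RefSeq (GRCm38.p6), and 9 of 9 members matched. Older symbols in the lists were read as current RefSeq symbols. Alternatives were other scalings, filters, probe summaries, thresholds and fits, a replicate block, muscle signal, and each array left out in turn.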

Additional observations from a re-analysis of the deposited data

How the results depend on the processing

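Over 7 comparisons, 148 of 175 other counts of called members stayed within 1.5 times the value reported and 27 did not. The 148 ignore direction and many stayed at 0. For single members, 1256 values kept direction and side of the threshold, 46 no longer passed it, 17 newly did and 31 changed sign. Most of the 1256 were not called at first, and only 5 PLX4720 and 2 COMBO calls could be lost. Over 14 other settings the PLX4720 call held in 7 for Vegfa, 10 for Vegfc, 9 for Pgf, 13 for Flt1 and 13 for Kdr. Both COMBO calls were lost with median scaling, the replicate block and the muscle covariate. For PLX4720 against vehicle, where 5 members were called, the count was 3 without a filter on detection, 3 with array weights, 2 with only the groups compared, 2 with muscle signal as a covariate and 2 without the 3 arrays of highest muscle signal. It was 4 with median scaling, but 3 of these were higher and 1 lower, beside 43.8% and 1.91% of all genes. For COMBO against vehicle, where 2 were called, it was 1 without background correction and 0 with median scaling, the muscle covariate or the muscle arrays left out. The thresholds of the methods gave 1 for bevacizumab against vehicle (0.75% of all genes), 1 for COMBO against PLX4720 (3.78%), 2 for COMBO against bevacizumab (2.45%) and 1 for the non-additive term (4.35%). COMBO against PLX4720 had 2 with median scaling, where 15.3% of all genes were called. COMBO against bevacizumab had 1 with the mean of probes (0.0823% of all genes) and 2 with array weights (0.466%). Leaving out each array in turn gave 3 to 5 for PLX4720 against vehicle, 0 to 2 for COMBO against vehicle, 0 to 1 for COMBO against bevacizumab, 4 to 5 for the F test and 0 for the others. Over all genes the 1423 calls with PLX4720 became 608 with only the groups compared, 610 with the muscle covariate, 344 without the muscle arrays and 5000 with median scaling. Of the single arrays, PLX4720 replicate 1 left out gave 659 calls, vehicle replicate 3 gave 589 and vehicle replicate 2 gave 355. The 40 calls with COMBO became 438 at the thresholds of the methods, 435 with array weights, 62 with trended and robust moderation, 125 with only the groups compared, 22 with median scaling, 19 without a filter, 11 with the replicate block, 9 with the muscle covariate and 0 without the muscle arrays. With single arrays left out they ranged from 0, without COMBO replicate 1, to 70, without PLX4720 replicate 3, and were 8 without vehicle replicate 2 or 3, 13 and 23 without bevacizumab replicates 3 and 2, and 15 without COMBO replicate 2. The cause of these changes was not tested.

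These values changed sign. COMBO over PLX4720 for Pgf, which neither group detected, so that these values carry no direction, was -0.0038, and it was 0.0067 without background correction, 0.027 with median scaling, 0.30 with cyclic loess, 0.020 with array weights and -0.11 to 0.10 with single arrays left out. With median scaling it was -0.79 for Vegfb, -0.053 for Flt4 and -0.74 for Nrp1, while COMBO over vehicle was 0.079 for Kdr, and the non-additive term -0.098 for Vegfa, -0.14 for Flt1 and -0.32 for Nrp1. Without the muscle arrays, bevacizumab over vehicle was 0.17 for Vegfc, and COMBO over bevacizumab -0.36 for Nrp2. With single arrays left out, COMBO over PLX4720 was -0.29 to 0.27 for Vegfb, -0.17 to 0.40 for Flt4 and -0.18 to 0.21 for Nrp1, bevacizumab over vehicle -0.12 to 0.17 for Vegfc and -0.61 to 0.015 for Nrp1, COMBO over bevacizumab -0.14 to 0.44 for Nrp2, and the non-additive term -0.00019 to 0.62 for Nrp1.

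With the replicate number as a replicate block, COMBO against vehicle had 0 calls, PLX4720 against vehicle 6 (Nrp2 added, adjusted p = 0.0432), and COMBO over PLX4720 was 0.22 for Pgf and -0.0051 for Nrp1. Same-numbered arrays had correlations of -0.24 to 0.26 between their deviations from the group means, over 0.1 in 2 of 15 pairs, so the numbers pair nothing and this fit is no main result.

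Weak signals limit Pgf, Flt4, Nrp2, Vegfc and the second Vegfa probe, each undetected on at least 2 arrays, and fitted differences against a group without a detected array are no measured sizes. COMBO rests on 2 arrays, and where 1 was left out the other was taken to vary like the other groups.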
